A study of Mus musculus with 16 samples.

Results

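The 8 genes described here are Nrg1, Erbb2, Erbb3, Erbb4, Bmp10, Nppa, Nppb and Irx3, which carry or mark the signals that build the trabeculae of the embryonic ventricle. They were taken by symbol, through the gene identifiers of the deposited count table, and are 8 of its 27179 genes. All 8 passed the filter on low counts, as did 15785 genes of the table. Read counts came from the hearts of 16 mouse embryos at embryonic day 10.5, with 4 hearts of each of 4 genotypes. Ing4+/- Ing5-/- hearts had lost 3 of the 4 alleles, namely 1 of Ing4 and both of Ing5. Ing4+/+ Ing5-/- hearts had lost both Ing5 alleles, and Ing4+/- Ing5+/+ hearts had lost 1 Ing4 allele. Ing4+/+ Ing5+/+ hearts were wild-type. No treatment was given, and the labels do not say how the alleles were made. Ing4 and Ing5 encode proteins that read methylated histone H3 and sit in histone acetyltransferase complexes.

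Trabeculae are the muscular ridges that grow from the inner face of the ventricle wall while the outer, compact layer stays thin. Neuregulin 1, made by the endocardium, acts on the myocardium through ErbB receptors. ErbB3 and ErbB4 bind it, whereas ErbB2 has no known ligand of its own and acts as their partner, and the kinase of ErbB3 is weak. Mouse embryos that lack Nrg1, Erbb2 or Erbb4 form no proper trabeculae, and those that lack Erbb3 have thin cushions of valve mesenchyme. BMP10 is secreted by the trabecular muscle, keeps cardiomyocytes dividing and holds down the cell cycle inhibitor Cdkn1c. Nppa and Nppb encode the precursors of the atrial and brain natriuretic peptides and mark the working muscle of the chambers, most of all the trabeculae. Irx3 encodes a homeodomain factor of the trabecular muscle and of the ventricular conduction system that arises from it in mice.

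In the RefSeq annotation of the GRCm38.p6 build, Nrg1 (gene ID 211323) lies at chr8:31807452-32891609 and Erbb2 (13866) at chr11:98412484-98437716. Erbb3 (13867) lies at chr10:128567523-128589635 and Erbb4 (13869) at chr1:68031884-69108576. Bmp10 (12154) lies at chr6:87428994-87434512 and Irx3 (16373) at chr8:91798511-91801654. Nppb (18158), at chr4:147985786-147987205, and Nppa (230899), at chr4:148000722-148002074, are neighbours 13.5 kb apart. Erbb4 is on the chromosome of Ing5, 25.8 Mb away, and Bmp10 on that of Ing4, 37.6 Mb away. Other annotated genes overlap 4 of the 8, namely Nrg1, Erbb2, Erbb3 and Erbb4, and reads in such stretches cannot be assigned with certainty, since no source used here gives the strand setting of the counting.

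The 250 bases before the starts of Nppa, Bmp10 and Nppb are printed because Nppa and Bmp10 were the pair whose levels moved together most closely, as shown further on, and Nppb is the neighbour of Nppa. They are the RefSeq promoter sequences of GRCm38.p6 on the forward strand, at chr4:148000472-148000721 for Nppa, chr6:87428744-87428993 for Bmp10 and chr4:147985650-147985899 for Nppb, whose window reaches into the listed span of the gene. Capitals mark 4 motifs searched on both strands: TATAAA (the TATA box), GATAA (the core bound by GATA factors), TNAAGTG (an element bound by NKX2-5) and GGTGTGA (an element bound by T-box factors). Motifs on the reverse strand appear as their complement.
Nppa: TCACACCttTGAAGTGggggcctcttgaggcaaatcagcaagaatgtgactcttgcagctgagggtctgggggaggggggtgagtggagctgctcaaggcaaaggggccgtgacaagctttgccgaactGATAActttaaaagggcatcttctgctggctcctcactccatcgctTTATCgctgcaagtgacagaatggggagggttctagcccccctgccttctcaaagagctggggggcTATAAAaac
Bmp10: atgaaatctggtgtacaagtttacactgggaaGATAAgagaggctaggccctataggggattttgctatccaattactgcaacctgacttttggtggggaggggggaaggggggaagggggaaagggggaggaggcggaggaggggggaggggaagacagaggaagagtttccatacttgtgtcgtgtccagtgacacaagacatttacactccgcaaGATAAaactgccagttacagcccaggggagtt
Nppb: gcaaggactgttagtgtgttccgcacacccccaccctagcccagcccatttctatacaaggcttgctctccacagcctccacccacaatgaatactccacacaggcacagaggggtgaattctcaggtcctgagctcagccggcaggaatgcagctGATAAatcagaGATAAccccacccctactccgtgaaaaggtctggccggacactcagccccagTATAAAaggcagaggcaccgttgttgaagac

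The Nppa window held all 4 motifs: TATAAA 9 bases before the start, GATAA at 121 bases and, on the reverse strand, at 75 bases, TNAAGTG at 241 bases, and GGTGTGA on the reverse strand at 250 bases. The Nppb window held TATAAA at 31 bases and GATAA at 94 and 83 bases. The Bmp10 window held GATAA at 218 and 32 bases and none of the other motifs. Among 32851 windows of the same length, TATAAA was found in 12.4%, GATAA in 22.6%, TNAAGTG in 10.1% and GGTGTGA in 3.33%, and 4.28% held GATAA more than once. A window was present for 6 of the 8 genes, and those of Erbb2, Erbb4 and Irx3 held none of the 4 motifs. The Erbb4 window, at chr1:69108060-69108309, lay inside the listed span of the gene and not before its listed start. Only the first listed window of each gene was searched. Such matches are a description of the letters and not of binding.

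Libraries held between 19753100 and 35664331 counted reads. The targeted genes were looked at first. Ing5 reads averaged 21.0 ± 2.75 CPM (counts scaled to a common library size with TMM factors) in Ing4+/- Ing5-/-, 23.5 ± 4.48 in Ing4+/+ Ing5-/-, 37.2 ± 3.70 in Ing4+/- Ing5+/+ and 33.5 ± 3.46 CPM in wild-type hearts (SD, n = 4 each). Ing4 averaged 34.3 ± 1.90 CPM in Ing4+/- Ing5-/-, 51.0 ± 7.30 in Ing4+/+ Ing5-/-, 34.1 ± 1.85 in Ing4+/- Ing5+/+ and 39.5 ± 7.60 CPM in wild-type hearts (SD, n = 4 each), and 1 wild-type heart, at 28.2 CPM, lay below every Ing4+/- heart. Libraries Ing4+/+ Ing5-/- 1, Ing4+/- Ing5-/- 2 and Ing4+/- Ing5+/+ 4 had the most extreme scores on principal components 1, 2 and 3, in that order. Their scores there were -44.28, 35.26 and -40.35. They are called the 3 libraries that stood apart. Such a choice names libraries in any data set, and no outlier threshold was applied. Of the 7 litters, none combined Ing4+/+ Ing5-/- with wild-type embryos, so that litter and genotype cannot be told apart there. The defining muscle genes of the heart were present in every library, the summed level of 10 cardiomyocyte markers lying between 16810 and 27510 CPM. In whole hearts, fewer cells of a type and less RNA per cell cannot be told apart.

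The 8 genes lay at very different levels, from near the top of all genes tested down to Nrg1, with 32.8% of genes tested below it. On a scale corrected for gene length (RPKM), Nppa averaged 1844 over all hearts and was the 20th highest of the genes tested. Nppb followed with 173.7 RPKM. Both natriuretic peptide genes thus stood far above the signalling genes in each of the 16 hearts. Erbb2 averaged 39.5 RPKM and Bmp10 35.6 RPKM. Erbb2 was the higher of these in 11 of 16 hearts, so the order of this pair was not fixed. Irx3 averaged 15.01, Erbb4 8.17, Erbb3 5.03 and Nrg1 3.18 RPKM. For every other pair of neighbours in this order the higher gene was higher in 16 of 16 hearts. Among the receptors, the co-receptor Erbb2 was thus far more abundant than the ligand-binding Erbb4 and Erbb3, and their ligand was the lowest of all.

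**Figure D1:**
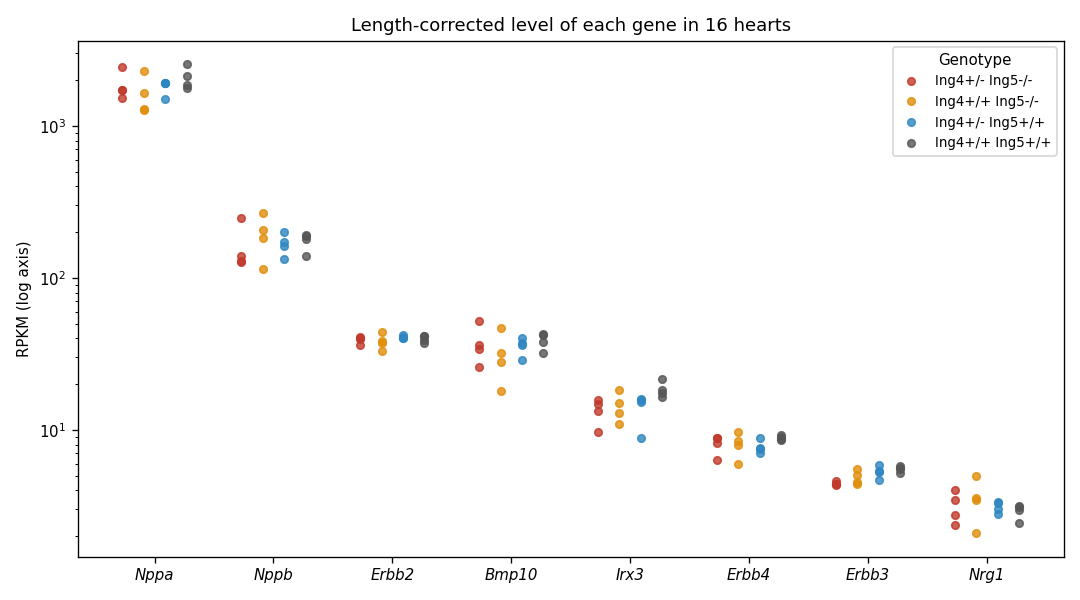
Length-corrected level (RPKM, log axis) of each of the 8 genes in every heart, with genotypes in separate colours. Nppa averaged 1844 RPKM and Nrg1 3.18 RPKM, and Erbb2 and Bmp10 are the only neighbours whose order changed between hearts.

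The 8 genes also differed in their spread between embryos of the same genotype. Its SD on the log2 scale was 0.102 for both Erbb2 and Erbb3, against a median of 0.174 over all genes tested. Only 15.8% of genes tested varied less than Erbb2. At the other end stood Nppb with 0.38 and Bmp10 with 0.372, and 86.6% and 85.5% of genes varied less than these. Irx3 (0.309), Nrg1 (0.304) and Nppa (0.286) were also variable, and Erbb4 (0.196) lay near the median. Counting error was a small share of this for most of them, since the lowest count in a library was 28625 for Nppa, 2371 for Nppb and 731 for Bmp10. Nrg1 rested on 111 to 329 reads, and its counting error alone reached 9.49% in the shallowest case.

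**Figure D2:**
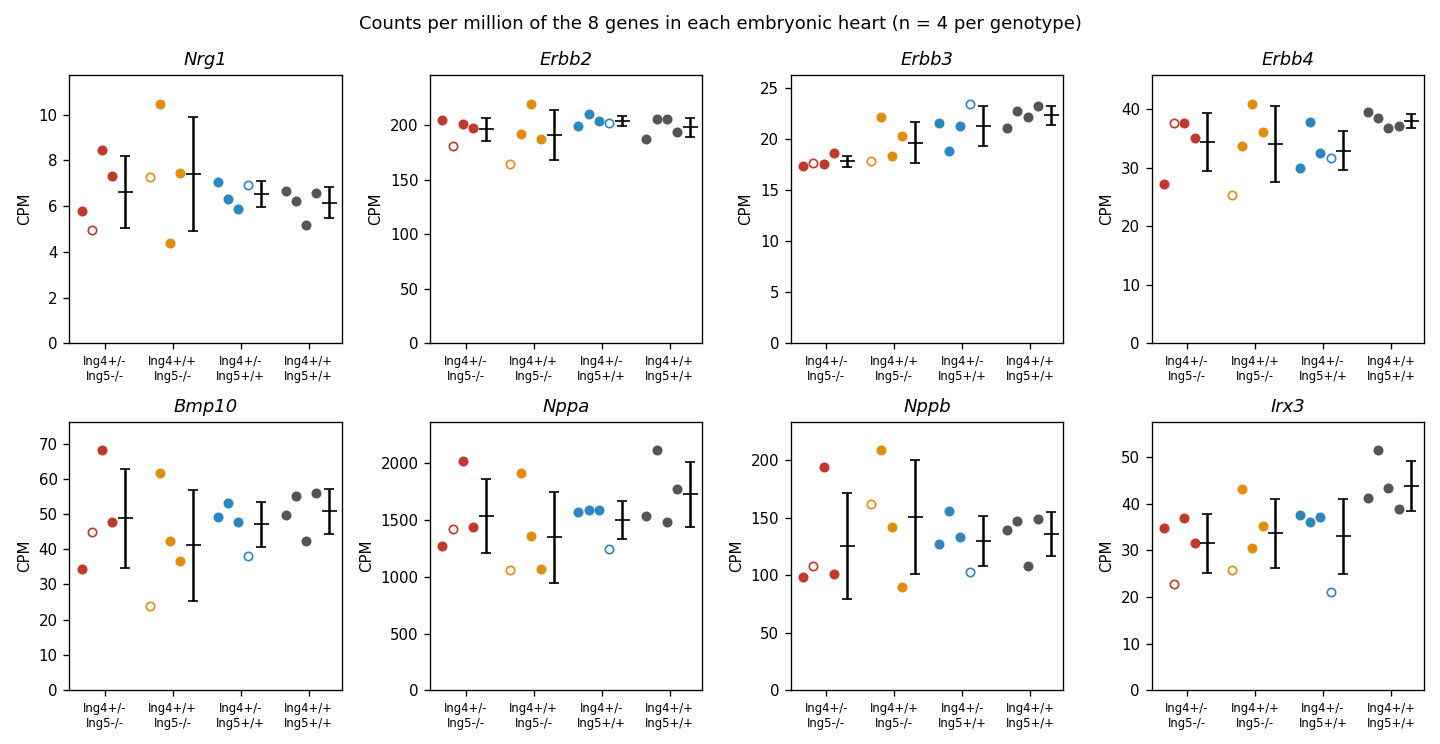
Level (CPM) of the 8 genes in each heart, 4 hearts per genotype. Points are hearts, open points are the 3 libraries that stood apart, and bars are mean ± SD. Erbb3 and Irx3 are lower in all Ing4+/- Ing5-/- hearts than in all wild-type hearts, and the other genes overlap.

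None of the 8 genes passed the test in any comparison of genotypes. The test was the quasi-likelihood test of edgeR on all genes, and the threshold for a call was 0.05 on p-values adjusted by Benjamini and Hochberg's method. For Ing4+/- Ing5-/- against wild-type hearts, 0 of 8 genes were called, against 0.855% of all genes tested, and the smallest adjusted p of edgeR was 0.124. By the unadjusted p of edgeR, 2 of the 8 (Erbb3 and Irx3) lay under 0.05, against 11.4% of all genes. The other tools gave 0 of 8 as well, against 2.06% of genes with DESeq2 and 0.494% with limma-voom. For Ing4+/- Ing5-/- against Ing4+/- Ing5+/+ hearts, 0 of 8 were called, against 1.16% of genes with edgeR, 3.08% with DESeq2 and 0.868% with limma-voom. By the unadjusted p of edgeR, 1 of the 8 (Erbb3) lay under 0.05 there, against 13.9% of genes.

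The comparisons with fewer called genes gave no call among the 8 either. For Ing4+/+ Ing5-/- against wild-type hearts the share of all genes called was 0.0127% with edgeR, 0.272% with DESeq2 and 0% with limma-voom, and 9.59% by the unadjusted p of edgeR, under which 0 of the 8 fell. For Ing4+/- Ing5+/+ against wild-type hearts the shares were 0%, 0.019%, 0% and 4.73%, again with 0 of the 8. For Ing4+/- Ing5-/- against Ing4+/+ Ing5-/- hearts they were 0.00634%, 0.12%, 0.00634% and 6.63%, with 0 of the 8. For the interaction, the difference of the Ing5 effect between the Ing4 backgrounds, they were 0%, 0.0443%, 0% and 5.88%, with 0 of the 8. By the unadjusted p of the other tools, Irx3 fell under 0.05 for Ing4+/+ Ing5-/- and for Ing4+/- Ing5+/+ against wild-type hearts with both DESeq2 and limma-voom, and Nppa for the first of these with limma-voom. For Ing4+/+ Ing5-/- against wild-type hearts 10.5% of all genes did so with DESeq2 and 9.24% with limma-voom, and for Ing4+/- Ing5+/+ against wild-type hearts 5.13% and 4.69%. The comparisons share hearts, so they are not independent of each other. The p-values measure the spread between these 16 embryos.

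The intervals of the main fit, which has no term for litter, show which changes were still possible under that fit. For Ing4+/- Ing5-/- against wild-type hearts, the 95% intervals of the fold change of the 8 genes all lay between 0.541, the lower bound of Irx3, and 1.47, the upper bound of Nrg1. All 8 intervals stayed within a 2-fold change in either direction in each of the 5 pairwise comparisons, with outermost bounds of 0.541 and 1.73. This holds for the main fit only. With litter as a block, the log2 fold change of Bmp10 in Ing4+/+ Ing5-/- against wild-type hearts had an SE of 0.533, against 0.252 in the main fit. Intervals were not computed for the litter block. For the interaction, 6 of 8 did, and the outermost bounds were 0.5 for Nppb and 2.18 for Bmp10. The log2 fold change of Ing4+/- Ing5-/- against wild-type hearts was negative for 7 of the 8 genes with a median of -0.13, where 49.2% of all genes were negative with a median of 0.00276. For Ing4+/+ Ing5-/- against wild-type hearts 6 of 8 were negative (median -0.17, against 46.8% and 0.0128 for all genes). For Ing4+/- Ing5+/+ against wild-type hearts 6 of 8 were negative too (median -0.0882, against 48.4% and 0.00533). For the comparison with Ing4+/- Ing5+/+ hearts and for that with Ing4+/+ Ing5-/- hearts, Ing4+/- Ing5-/- hearts had 4 negative and 4 positive values each.

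**Figure D3:**
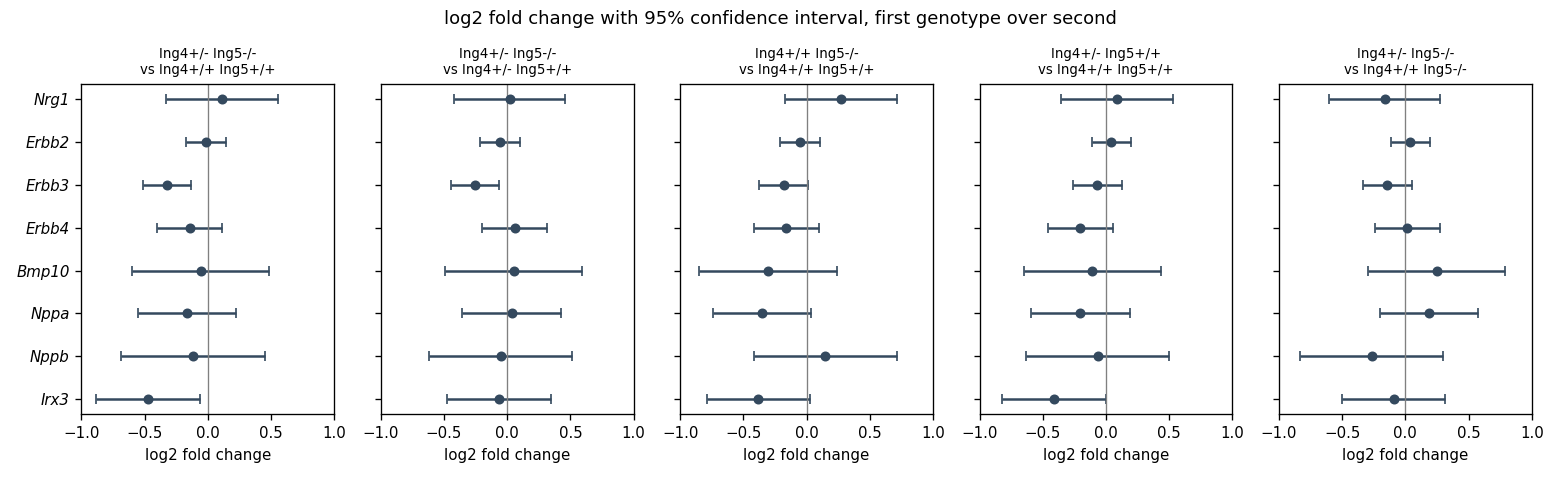
Log2 fold change of each gene in the 5 pairwise comparisons, as edgeR estimates with 95% intervals. Erbb3 and Irx3 in Ing4+/- Ing5-/- against wild-type hearts (-0.32 and -0.47) and Erbb3 against Ing4+/- Ing5+/+ hearts (-0.26) have intervals clear of 0, before adjustment over all genes.

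Nrg1, the ligand, was low and uneven. It stood at 5.79, 4.94, 8.47 and 7.30 CPM in Ing4+/- Ing5-/- hearts, at 7.28, 10.5, 4.40 and 7.43 CPM in Ing4+/+ Ing5-/- hearts, at 7.07, 6.29, 5.87 and 6.92 CPM in Ing4+/- Ing5+/+ hearts, and at 6.68, 6.21, 5.16 and 6.57 CPM in wild-type hearts. Both the highest and the lowest heart were Ing4+/+ Ing5-/-, and all groups overlapped. The log2 fold change of Ing4+/- Ing5-/- against wild-type hearts was 0.11 ± 0.21 (SE; edgeR adjusted p = 0.895), and its 95% interval reached from 0.793-fold to 1.47-fold. That of Ing4+/+ Ing5-/- against wild-type hearts was 0.27 ± 0.21 (edgeR adjusted p = 0.7).

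Erbb2, the shared partner receptor, was the steadiest of the 8. It averaged 196.4 ± 10.4 CPM in Ing4+/- Ing5-/-, 191 ± 23.0 in Ing4+/+ Ing5-/-, 204.3 ± 4.81 in Ing4+/- Ing5+/+ and 198.2 ± 9.06 CPM in wild-type hearts (SD, n = 4 each). Its lowest heart, at 164.2 CPM, and its highest, at 220.1 CPM, were both Ing4+/+ Ing5-/-. Its log2 fold change in Ing4+/- Ing5-/- against wild-type hearts was -0.01 ± 0.08 (edgeR adjusted p = 0.968), with a 95% interval from 0.888-fold to 1.1-fold, the narrowest of the 8.

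Erbb4, the receptor that binds neuregulin and signals in the myocardium, stood at 27.1, 37.6, 37.6 and 34.96 CPM in Ing4+/- Ing5-/- hearts and at 25.4, 33.6, 40.9 and 36.0 CPM in Ing4+/+ Ing5-/- hearts. It stood at 29.9, 37.7, 32.4 and 31.6 CPM in Ing4+/- Ing5+/+ hearts and at 39.4, 38.4, 36.7 and 37.2 CPM in wild-type hearts. The wild-type hearts lay close together at 37.9 ± 1.24 CPM, and each of the other genotypes had at least 1 heart as high as the lowest of these and hearts well below it. Against wild-type hearts the log2 fold changes were -0.14 ± 0.12 for Ing4+/- Ing5-/-, -0.16 ± 0.12 for Ing4+/+ Ing5-/- and -0.20 ± 0.12 for Ing4+/- Ing5+/+ hearts (edgeR adjusted p = 0.719, 0.7 and 0.963). The 2 lowest hearts, Ing4+/+ Ing5-/- 1 and Ing4+/- Ing5-/- 1, came from the same litter.

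Erbb3, the receptor with the weak kinase, showed the change with the smallest p of the 8. Its level was 17.3, 17.6, 17.6 and 18.6 CPM in Ing4+/- Ing5-/- hearts and 17.8, 22.1, 18.3 and 20.3 CPM in Ing4+/+ Ing5-/- hearts. It was 21.5, 18.8, 21.3 and 23.4 CPM in Ing4+/- Ing5+/+ hearts and 21.1, 22.7, 22.1 and 23.2 CPM in wild-type hearts. All 4 Ing4+/- Ing5-/- hearts thus lay below all wild-type hearts and below all Ing4+/- Ing5+/+ hearts, while Ing4+/+ Ing5-/- hearts reached across both. It averaged 17.8 ± 0.560 CPM in Ing4+/- Ing5-/-, 19.6 ± 1.97 in Ing4+/+ Ing5-/-, 21.2 ± 1.91 in Ing4+/- Ing5+/+ and 22.3 ± 0.924 CPM in wild-type hearts (SD, n = 4 each). The log2 fold change of Ing4+/- Ing5-/- against wild-type hearts was -0.32 ± 0.09, with a 95% interval from 0.699-fold to 0.913-fold. It did not pass the edgeR test over all genes (adjusted p = 0.124; its unadjusted p from the same edgeR model was 0.00218). Against Ing4+/- Ing5+/+ hearts it was -0.26 ± 0.09 (edgeR adjusted p = 0.203).

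Groups without overlap were not rare in these data. For Ing4+/- Ing5-/- against wild-type hearts, 2 of the 8 genes (Erbb3 and Irx3) lay lower without overlap, against 4.71% of all genes tested. Against Ing4+/- Ing5+/+ hearts 1 of the 8 (Erbb3) did, against 4.88% of genes. For Ing4+/- Ing5+/+ against wild-type hearts 1 of the 8 (Irx3) did, against 2.04% of genes. With 1 gene of 8 as the smallest possible count above 0, these shares describe the genes and say little about the set.

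Erbb3 was also lower within each litter that allowed the comparison. Litters 4 and 6 each held 1 Ing4+/- Ing5-/- and 1 wild-type embryo, and the log2 difference of Ing4+/- Ing5-/- from wild-type was -0.249 and -0.392 there. Against Ing4+/- Ing5+/+ litter mates it was -0.0873, -0.27 and -0.325 in litters 4, 6 and 7, and against Ing4+/+ Ing5-/- litter mates -0.189 and -0.123 in litters 1 and 7. Each value compares single embryos (in litter 1 with the mean of 2), so none has an error of its own. With only the 8 hearts of the groups compared in the fit, the adjusted p of Erbb3 for Ing4+/- Ing5-/- against wild-type hearts was 0.0459 in edgeR and the gene was called. Without the 3 libraries that stood apart it was 0.0661, at a log2 fold change of -0.325 ± 0.0904. Over all 25 other settings tried, the log2 fold change stayed between -0.36 and -0.304, and the edgeR, DESeq2 or limma-voom adjusted p between 0.0459 and 0.541.

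**Figure D4:**
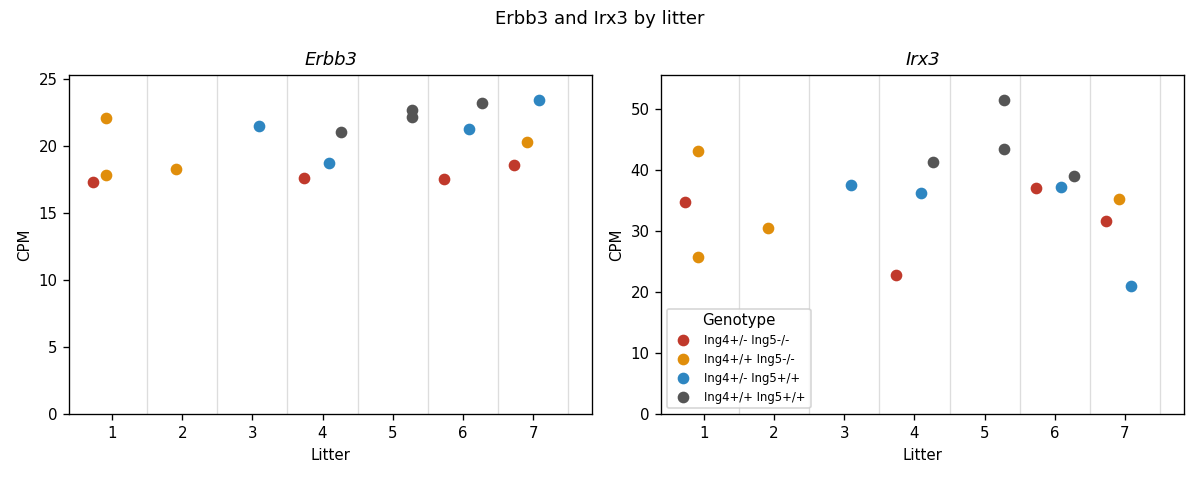
Erbb3 and Irx3 in CPM for each heart, placed by litter (1 to 7) and coloured by genotype. In litters 4 and 6 the Ing4+/- Ing5-/- heart is below its wild-type litter mate for both genes, for Irx3 by -0.848 and -0.073 on the log2 scale.

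Markers of cushion mesenchyme, a tissue in which Erbb3 acts, are given beside these values. The summed level of 8 such genes was 707.8 to 810.4 CPM in Ing4+/- Ing5-/-, 715.8 to 793.9 in Ing4+/+ Ing5-/-, 833.4 to 992.3 in Ing4+/- Ing5+/+ and 795.3 to 907.2 CPM in wild-type hearts, and none of the 8 was at 0. The largest part of this sum was Tbx20, which is also among the compact and ventricular markers used below. Tbx20 averaged 431.4 CPM in Ing4+/- Ing5-/- and 479.9 CPM in wild-type hearts, so the sum is not particular to the cushions. In Ing4+/- Ing5-/- against wild-type hearts, 7 of the 8 had a negative log2 fold change where 49.2% of all genes tested were negative, and 0 were called by edgeR (median -0.156). The ranges of the sum overlapped between these genotypes. The sum in Ing4+/- Ing5-/- hearts lay wholly below that in Ing4+/- Ing5+/+ hearts. In that comparison 7 of the 8 genes were negative, where 50.3% of all genes tested were, and 0 were called by edgeR (median -0.266). The sum in Ing4+/+ Ing5-/- hearts lay wholly, though narrowly, below that in wild-type hearts. Of 8 neural crest and glia genes, 4 passed the filter and up to 5 were at 0 in a heart. Their sum was 102.3 to 122.6 CPM in Ing4+/- Ing5-/-, 85.2 to 112.5 in Ing4+/+ Ing5-/-, 108.1 to 123.4 in Ing4+/- Ing5+/+ and 102 to 116.3 CPM in wild-type hearts. Over the 16 hearts, Pearson's r of Erbb3 was 0.675 to the cushion sum and 0.338 to the neural crest and glia sum. The part of either tissue in the Erbb3 values was not tested.

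The wider ErbB pathway held no called gene. Of 11 further genes of the family, the receptor Egfr and other ligands, 8 passed the filter and 0 were called by edgeR in any pairwise comparison. Egfr averaged 6.35 ± 1.03 CPM in Ing4+/- Ing5-/-, 11.7 ± 6.36 in Ing4+/+ Ing5-/-, 11.2 ± 0.973 in Ing4+/- Ing5+/+ and 10.9 ± 0.682 CPM in wild-type hearts (SD, n = 4 each). Its log2 fold change in Ing4+/- Ing5-/- against wild-type hearts was -0.78 ± 0.24 (edgeR adjusted p = 0.187). Hbegf, which encodes a heparin-binding ligand of Egfr and ErbB4, had a log2 fold change of 0.02 ± 0.14 in the same comparison (edgeR adjusted p = 0.97). Of 27 genes that process the ligands, carry the signal or restrain it, 0 were called in any pairwise comparison, and 15 were negative in Ing4+/- Ing5-/- against wild-type hearts. Among the most abundant was Ptpn11, a phosphatase of the pathway, at 322.6 ± 16.4 CPM in Ing4+/- Ing5-/- and 350.4 ± 14.2 CPM in wild-type hearts (SD, n = 4 each).

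Among 26 genes of the endocardium and the matrix that guide trabeculation, among them Notch1, Efnb2, Has2 and the slit ligands, 1 was called. Vegfa, the growth factor of endothelial cells, averaged 196.9 ± 29.8 CPM in Ing4+/- Ing5-/-, 164.6 ± 33.5 in Ing4+/+ Ing5-/-, 107.3 ± 7.54 in Ing4+/- Ing5+/+ and 99.97 ± 8.65 CPM in wild-type hearts (SD, n = 4 each). It rose by 0.98 ± 0.12 in Ing4+/- Ing5-/- against wild-type hearts (edgeR adjusted p = 0.000523), but was not called there with litter as a block (edgeR adjusted p = 0.154). Against Ing4+/- Ing5+/+ hearts it rose by 0.88 ± 0.12 (edgeR adjusted p = 0.00105). The other 25 genes of the list were not called, and the median of the list was -0.0366, against 0.00276 for all genes.

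Bmp10, the growth factor of the trabecular muscle, varied from 23.8 to 68.1 CPM. It stood at 34.3, 44.9, 68.1 and 47.7 CPM in Ing4+/- Ing5-/- hearts and at 23.8, 61.7, 42.3 and 36.6 CPM in Ing4+/+ Ing5-/- hearts. It stood at 49.2, 53.2, 47.9 and 38.0 CPM in Ing4+/- Ing5+/+ hearts and at 49.6, 55.0, 42.3 and 56.1 CPM in wild-type hearts. The lowest heart and the 2 highest lacked Ing5, and the groups overlapped throughout. Against wild-type hearts the log2 fold change was -0.06 ± 0.25 for Ing4+/- Ing5-/-, -0.30 ± 0.25 for Ing4+/+ Ing5-/- and -0.11 ± 0.25 for Ing4+/- Ing5+/+ hearts (edgeR adjusted p = 0.958, 0.726 and 0.992). In the first of these the 95% interval reached from 0.66-fold to 1.4-fold.

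Of 22 receptors and response genes of BMP10, 0 were called in Ing4+/- Ing5-/- against wild-type hearts and 13 were negative. Cdkn1c, the cell cycle inhibitor that BMP10 restrains in the mouse heart, stood at 2489 ± 282 CPM in Ing4+/- Ing5-/- and 2622 ± 249 CPM in wild-type hearts (SD, n = 4 each; edgeR adjusted p = 0.871). Against Ing4+/- Ing5+/+ hearts 1 of the 22 was called, Acvr1, a type I receptor of BMP ligands. It averaged 49.0 ± 4.71 CPM in Ing4+/- Ing5-/- and 62.0 ± 3.62 CPM in Ing4+/- Ing5+/+ hearts (SD, n = 4 each) and fell by 0.34 ± 0.07 on the log2 scale (edgeR adjusted p = 0.0264). The call was lost with litter as a block (edgeR adjusted p = 0.179), without the 3 libraries that stood apart (0.0648) and in 5 of 16 fits that left out 1 library, with an adjusted p of up to 0.102.

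Nppa, the most abundant of the 8, stood at 1270, 1424, 2018 and 1436 CPM in Ing4+/- Ing5-/- hearts and at 1057, 1915, 1357 and 1073 CPM in Ing4+/+ Ing5-/- hearts. It stood at 1576, 1586, 1593 and 1247 CPM in Ing4+/- Ing5+/+ hearts and at 1537, 2115, 1481 and 1773 CPM in wild-type hearts. It averaged 1537 ± 329 CPM in Ing4+/- Ing5-/-, 1350 ± 401 in Ing4+/+ Ing5-/-, 1500 ± 169 in Ing4+/- Ing5+/+ and 1727 ± 288 CPM in wild-type hearts (SD, n = 4 each). The wild-type mean was the highest, and all groups overlapped. The largest difference was that of Ing4+/+ Ing5-/- from wild-type hearts, at -0.35 ± 0.18 on the log2 scale (edgeR adjusted p = 0.553). That of Ing4+/- Ing5-/- from wild-type hearts was -0.17 ± 0.18 (edgeR adjusted p = 0.793). The interaction, 0.39 ± 0.26, was not called (edgeR adjusted p = 0.884).

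Nppb, its neighbour, stood at 98.5, 107.9, 193.9 and 100.9 CPM in Ing4+/- Ing5-/- hearts and at 162, 208.7, 142.1 and 89.7 CPM in Ing4+/+ Ing5-/- hearts. It stood at 127.3, 155.9, 133.3 and 103.3 CPM in Ing4+/- Ing5+/+ hearts and at 139.7, 147.3, 108.1 and 148.6 CPM in wild-type hearts. In Ing4+/- Ing5-/- hearts 3 of 4 values lay below every wild-type value and the remaining 1 above every wild-type value. Its log2 fold change was -0.12 ± 0.26 for Ing4+/- Ing5-/- and 0.15 ± 0.26 for Ing4+/+ Ing5-/- against wild-type hearts (edgeR adjusted p = 0.914 and 0.88).

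The ratio of the RPKM of Nppa to that of Nppb shows how far the neighbours moved separately. It was 12.1, 12.4, 9.79 and 13.4 in Ing4+/- Ing5-/- hearts, 6.14, 8.63, 8.99 and 11.3 in Ing4+/+ Ing5-/- hearts, 11.6, 9.57, 11.2 and 11.4 in Ing4+/- Ing5+/+ hearts, and 10.4, 13.5, 12.9 and 11.2 in wild-type hearts. In Ing4+/+ Ing5-/- hearts 3 of 4 ratios lay below every other heart, and the fourth lay within the range of the other genotypes. The lowest, 6.14, belonged to the Ing4+/+ Ing5-/- library that stood apart. No test was made of this ratio.

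The rest of the natriuretic peptide system showed no called change. Of 9 genes for the third peptide, the receptors, the processing enzymes and the downstream kinase, 8 passed the filter and 0 were called in any pairwise comparison. The most abundant were Furin, a protease that cuts precursors, with a log2 fold change of 0.07 ± 0.09 in Ing4+/- Ing5-/- against wild-type hearts, and Npr3, the clearance receptor, with -0.07 ± 0.10 (edgeR adjusted p = 0.813 and 0.849). Of 19 transcription factors known to act on Nppa or Nppb, 0 were called in any pairwise comparison and 14 were negative in Ing4+/- Ing5-/- against wild-type hearts. Tbx20 averaged 431.4 ± 40.4 CPM in Ing4+/- Ing5-/- and 479.9 ± 18.5 CPM in wild-type hearts (SD, n = 4 each; edgeR adjusted p = 0.6). Gata4 had a log2 fold change of -0.11 ± 0.08 (edgeR adjusted p = 0.643).

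Irx3 had the largest fold change of the 8 against wild-type hearts. It stood at 34.8, 22.7, 37.0 and 31.5 CPM in Ing4+/- Ing5-/- hearts and at 25.7, 43.1, 30.4 and 35.3 CPM in Ing4+/+ Ing5-/- hearts. It stood at 37.5, 36.1, 37.2 and 21.0 CPM in Ing4+/- Ing5+/+ hearts and at 41.3, 51.4, 43.4 and 38.9 CPM in wild-type hearts. All Ing4+/- Ing5-/- and all Ing4+/- Ing5+/+ hearts lay below all wild-type hearts, and 3 of 4 Ing4+/+ Ing5-/- hearts did. The log2 fold change against wild-type hearts was -0.47 ± 0.19 for Ing4+/- Ing5-/- (edgeR adjusted p = 0.356; 95% interval from 0.541-fold to 0.957-fold). It was -0.38 ± 0.19 for Ing4+/+ Ing5-/- (edgeR adjusted p = 0.544) and -0.41 ± 0.19 for Ing4+/- Ing5+/+ hearts (edgeR adjusted p = 0.963). The 3 values share the same wild-type hearts. Between the mutant genotypes Irx3 differed little, with -0.07 ± 0.19 for Ing4+/- Ing5-/- against Ing4+/- Ing5+/+ and -0.09 ± 0.19 against Ing4+/+ Ing5-/- hearts.

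The lowest heart in each mutant genotype was the library that stood apart. Without those 3 libraries the log2 fold change of Irx3 against wild-type hearts was -0.352 ± 0.107 for Ing4+/- Ing5-/- (edgeR adjusted p = 0.0977), -0.275 ± 0.106 for Ing4+/+ Ing5-/- (adjusted p = 0.505) and -0.25 ± 0.106 for Ing4+/- Ing5+/+ hearts (adjusted p = 0.849). Within litters, Irx3 differed by -0.848 in litter 4 and -0.073 in litter 6 between the Ing4+/- Ing5-/- and the wild-type embryo, and by -0.189 and -0.0671 between the Ing4+/- Ing5+/+ and the wild-type embryo. The sign held within these litters, while the size did not, and the Ing4+/- Ing5-/- heart of litter 4 is among the libraries that stood apart. Over all 25 other settings tried, the log2 fold change of Irx3 against wild-type hearts stayed negative in each mutant genotype, but its size varied. It lay between -0.561 and -0.273 for Ing4+/- Ing5-/-, between -0.524 and -0.0735 for Ing4+/+ Ing5-/- and between -0.477 and -0.246 for Ing4+/- Ing5+/+ hearts.

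Of the 5 other Iroquois genes, 0 were called in any pairwise comparison. Irx4, a factor of the ventricular muscle, averaged 85.2 ± 8.14 CPM in Ing4+/- Ing5-/- and 105.3 ± 3.95 CPM in wild-type hearts (SD, n = 4 each), a log2 fold change of -0.31 ± 0.16 (edgeR adjusted p = 0.511). Irx5, the neighbour of Irx3 in the mouse genome, averaged 47.4 ± 6.88 CPM in Ing4+/- Ing5-/- and 41.0 ± 5.07 CPM in wild-type hearts (SD, n = 4 each), a log2 fold change of 0.21 ± 0.22 (edgeR adjusted p = 0.782).

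The summed level of 10 other trabecular markers was 2923 to 3879 CPM in Ing4+/- Ing5-/-, 2429 to 3678 in Ing4+/+ Ing5-/-, 2876 to 3650 in Ing4+/- Ing5+/+ and 3460 to 4238 CPM in wild-type hearts, and none was at 0. Most of this sum was Cdkn1c, which averaged 2489 CPM in Ing4+/- Ing5-/- and 2622 CPM in wild-type hearts. The ranges overlapped. Of the 10, 1 was called in Ing4+/- Ing5-/- against wild-type hearts and 5 were negative. Kcne1, a potassium channel subunit, averaged 38.7 ± 1.88 CPM in Ing4+/- Ing5-/-, 26.7 ± 7.38 in Ing4+/+ Ing5-/-, 24.0 ± 2.40 in Ing4+/- Ing5+/+ and 24.9 ± 1.78 CPM in wild-type hearts (SD, n = 4 each). It rose by 0.64 ± 0.14 in Ing4+/- Ing5-/- against wild-type hearts (edgeR adjusted p = 0.0383) and by 0.69 ± 0.14 against Ing4+/- Ing5+/+ hearts (edgeR adjusted p = 0.0228). The first call was lost with litter as a block (edgeR adjusted p = 0.242), with limma-voom (adjusted p = 0.0717) and in 11 of 16 fits that left out 1 library, with an adjusted p of up to 0.139. The second was lost in 4 of the 16, with an adjusted p of up to 0.0901.

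Cardiomyocyte markers summed to 20780 to 25550 CPM in Ing4+/- Ing5-/-, 16810 to 27510 in Ing4+/+ Ing5-/-, 23080 to 25190 in Ing4+/- Ing5+/+ and 25410 to 27130 CPM in wild-type hearts, with 9 of 10 negative and 0 called in Ing4+/- Ing5-/- against wild-type hearts. Since Nppa, Nppb, Bmp10 and Irx3 are muscle genes, this stands beside their negative values, and its part in them was not tested. Compact and ventricular markers (0 of 9 called), atrial and inflow markers (0 of 9), endocardial and endothelial markers (0 of 12) and neuronal markers (0 of 8) held no call in that comparison. Epicardial markers summed to 377.2 to 461.7 CPM in Ing4+/- Ing5-/-, 347.9 to 1180 in Ing4+/+ Ing5-/-, 389.3 to 579.8 in Ing4+/- Ing5+/+ and 494.4 to 545.7 CPM in wild-type hearts, with 6 of 8 negative and 1 called, Krt19, a keratin, which rose by 0.71 ± 0.12 in Ing4+/- Ing5-/- against wild-type hearts (edgeR adjusted p = 0.00501). The Ing4+/+ Ing5-/- library at 1180 CPM was the one that stood apart, and it was also the lowest for Bmp10, Nppa, Erbb2 and Erbb4.

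Macrophage markers differed most. They summed to 36.3 to 52.9 CPM in Ing4+/- Ing5-/-, 17.7 to 47.0 in Ing4+/+ Ing5-/-, 12.9 to 19.4 in Ing4+/- Ing5+/+ and 9.77 to 15.8 CPM in wild-type hearts, and 7 of 8 rose in Ing4+/- Ing5-/- against wild-type hearts by edgeR. They included Laptm5 (log2 fold change 1.32 ± 0.19, edgeR adjusted p = 0.00147) and Ptprc, which encodes CD45 (3.69 ± 0.61, edgeR adjusted p = 0.0048). Of all genes tested, 0.855% were called in that comparison. Against Ing4+/- Ing5+/+ hearts 2 of the 8 macrophage markers were called, against 1.16% of all genes. For Ing4+/+ Ing5-/- against wild-type hearts 0 of the 8 were, against 0.0127%. None of the 8 had a negative log2 fold change in these comparisons. The 8 erythroid markers summed to 7171 to 45020 CPM in Ing4+/- Ing5-/-, 5155 to 30500 in Ing4+/+ Ing5-/-, 4406 to 17850 in Ing4+/- Ing5+/+ and 8036 to 10880 CPM in wild-type hearts, with 0 of 8 called. Of 8 endoderm and liver bud markers, 3 passed the filter, up to 5 were at 0 in a heart and their sum stayed between 0.417 and 22.5 CPM. The part of blood in the values of the 8 genes was not tested.

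From heart to heart, several of the 8 genes moved together, and Bmp10 and Nppa did so most closely. Over the 16 hearts, log2(CPM + 0.5) of Bmp10 and Nppa correlated with Pearson's r of 0.906 and Spearman's rho of 0.944 (permutation p = 1e-05 for each, the smallest that 100000 resamples can give; adjusted over the 28 pairs of the 8 genes, 0.00028 for each). The correlation stood at 0.899 with each genotype centred on its mean, 0.957 with each litter centred, 0.897 without the 2 hearts farthest from the median, and 0.901 without the 3 libraries that stood apart. The ratio of the RPKM of Nppa to that of Bmp10 was 52.6 ± 6.33 over all hearts (SD, n = 16). This was the only pair of 28 whose Pearson correlation passed the adjusted threshold in the main setting. In 25 of the 28 pairs r was positive, with a median of 0.321. Bmp10 and Nppa also varied with the summed markers of tissues. Pearson's r to the trabecular sum was 0.733 for Bmp10 and 0.752 for Nppa. To the compact and ventricular sum it was 0.762 and 0.68, and to the atrial and inflow sum -0.296 and -0.336. The part of tissue makeup in the correlation of Bmp10 and Nppa was not tested.

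The other pairs among the muscle genes were looser. Irx3 and Nppa had r = 0.646 (permutation p = 0.00702, adjusted 0.0761) and rho = 0.744 (permutation p = 0.00162, adjusted 0.0227), with r of 0.63 when centred by genotype and 0.479 when centred by litter. Nppa and Nppb, the neighbours on chromosome 4, had r = 0.617 (permutation p = 0.0109, adjusted 0.0764) and rho = 0.588. Their r was 0.795 with genotypes centred (permutation p adjusted 0.0482), 0.649 with litters centred, 0.796 without the 2 farthest hearts and 0.818 without the 3 libraries that stood apart. Bmp10 and Irx3 had r = 0.544. Bmp10 and Nppb had r = 0.476 over all hearts, 0.617 with genotypes centred, 0.574 with litters centred, 0.851 without the 2 farthest hearts and 0.878 without the 3 libraries. The relation of Erbb4 and Bmp10, r = 0.635 over all hearts (permutation p = 0.00815, adjusted 0.0761), depended on the hearts kept. Its r was 0.122 without the 2 hearts farthest from the median of Erbb4, which narrows the range of Erbb4, and 0.351 without the 3 libraries. With all hearts kept, it was 0.647 with genotypes centred (unadjusted permutation p = 0.0688) and 0.852 with litters centred (unadjusted permutation p = 0.0243).

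**Figure D5:**
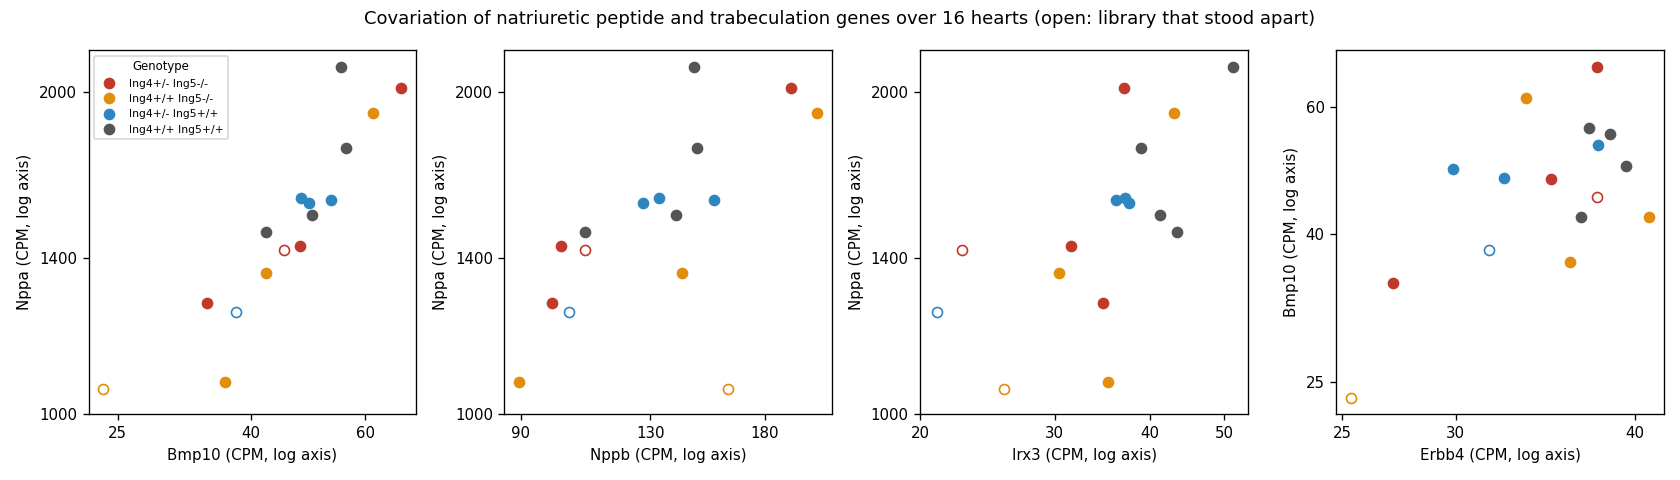
Levels of 4 pairs of genes in each of 16 hearts, coloured by genotype, with open points for the 3 libraries that stood apart. Bmp10 and Nppa lie near a line (r = 0.906), while the other pairs scatter more (r of 0.617 to 0.646).

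The genes most like each of the 8 over the 16 hearts were ranked by r among 10965 genes. For Bmp10 they were Lrig1 (r = 0.946), Lama4 (0.923) and Tgfbr2 (0.89). Lrig1 encodes a membrane protein that restrains ErbB receptors, and Lama4 a laminin chain. For Nppa they were Gja1, the gap junction protein connexin 43 (r = 0.932), BC004004 (0.893) and Palmd (0.888). Among these genes, Bmp10 took rank 2 by r to Nppa, and Nppa took rank 3 by r to Bmp10. For Irx3 they were Cacng6 (r = 0.919), Cav3, the caveolin of muscle (0.894), and Fbxl22 (0.894), and for Nppb Miga2 (0.882), Fads3 (0.806) and Poglut2 (0.78).

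For the receptors and the ligand, the most alike genes were of other kinds. Erbb2 was most like Clptm1 (r = 0.91), Nap1l4 (0.886) and Ppp2r1a (0.882), and Erbb4 like Myo10 (0.884), Sorl1 (0.834) and Ncoa2 (0.83). Erbb3 was most like Frem1 (r = 0.843), Stmn4 (0.843) and Pclaf (0.841). With genotypes centred, r to Erbb3 was 0.535 for Frem1, 0.607 for Pclaf and 0.853 for Stmn4. Nrg1 was most like Poglut3 (0.83), Fbxl7 (0.81) and Cbx6 (0.806). These are descriptions over 16 hearts that share depth and tissue makeup, and the highest of 10965 values is high by selection.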

How the data were processed

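RNA was measured in 16 mouse hearts at embryonic day 10.5, 4 of each of 4 genotypes, as column-purified total RNA in stranded libraries, per the labels' protocols. The deposited files hold raw counts of reads per gene, made with bcl2fastq and featureCounts on mm10, per the submitters' processing notes. No source used here gives the aligner, the annotation or tool versions. Each of the 16 single-sample tables held the same counts as the series table. The authors' deposited table also gives a gene length in bases (another unit), used here for RPKM. Of 27179 gene IDs, 25275 (93%) matched a symbol.

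Counts were fitted in R 4.3.3 with the edgeR 4.0.16 quasi-likelihood test: TMM factors (0.967 to 1.08), 15785 genes kept by its filter, 11394 removed, 1 mean per genotype over all 16 libraries, 5 pairwise comparisons and the interaction, and Benjamini-Hochberg adjustment over all genes at 0.05. The biological coefficient of variation was 0.159. Correlations used log2(CPM + 0.5) and 100000 permutations. Alternatives were DESeq2 1.42.0 size factors and Wald test, limma 3.58.1 voom, no filter, a filter of 1 CPM, litter or replicate number as a block, only the groups compared, and each library left out. The 3 libraries standing apart were the most extreme on 1 principal component each (21.3, 17 and 14.8% of the variance), with no outlier threshold. A fit that left them out, and correlations centred by litter or without those libraries, were added after seeing the data. The pipeline was tested on simulated data. Between libraries of the same genotype, chi-square divided by its degrees of freedom was 6.68 to 108, above the 1 that counting error alone gives.

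The 8 genes and the gene lists were chosen with earlier results of these data known. Beside the 8 genes and the targets, the text names up to 4 called members of a list or, where none was called, up to 2 of the most abundant, and the 3 genes most alike to each of the 8 by r, among genes of at least 5 CPM. Promoters are from RefSeq, GRCm38.p6.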

Additional observations from a re-analysis of the deposited data

Results flagged for a closer look

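In 3 of 32 groups of 4 hearts, 1 heart lay far from the other 3, a gap that chance gives in about 1 in 20 groups. Nppa stood at 1247 CPM in Ing4+/- Ing5+/+ 4, against 1576 to 1593 CPM in the other hearts of that genotype, a gap of 0.951 of the group's range. Irx3 stood at 21.0 CPM in the same heart, against 36.1 to 37.5 CPM, a gap of 0.914 of the range. This library is among the 3 that stood apart. Nppb stood at 193.9 CPM in Ing4+/- Ing5-/- 3, against 98.5 to 107.9 CPM in the other hearts of that genotype, a gap of 0.901 of the range. The same heart was the highest of its genotype for Bmp10 (68.1 CPM) and Nppa (2018 CPM).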

How the results depend on the processing

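The count of called genes among the 8 was 0 in every comparison and setting but 1: with only the groups compared in the fit, 1 gene (Erbb3) was called for Ing4+/- Ing5-/- against wild-type hearts, where 465 of all genes were called. Of the 1192 values of the 48 fold changes of the 8 genes under the alternatives, 1135 kept their sign and side of the threshold, 56 changed sign and 1 was newly called; 26 fold changes never changed sign, and the largest main size among the 22 that did was 0.304. Those of Erbb3 kept their sign throughout. With the DESeq2 Wald test the genes called over the whole table were 325 for Ing4+/- Ing5-/- against wild-type, 486 against Ing4+/- Ing5+/+ and 19 against Ing4+/+ Ing5-/- hearts, 43 for Ing4+/+ Ing5-/- and 3 for Ing4+/- Ing5+/+ against wild-type hearts, and 7 for the interaction, against 135, 183, 1, 2, 0 and 0 in edgeR. With limma-voom they were 78 for Ing4+/- Ing5-/- and 0 for Ing4+/+ Ing5-/- against wild-type hearts. With only the groups compared they were 282 for Ing4+/- Ing5-/- against Ing4+/- Ing5+/+ and 0 against Ing4+/+ Ing5-/- hearts, and 0 for Ing4+/+ Ing5-/- and 2 for Ing4+/- Ing5+/+ against wild-type hearts. Without the 3 libraries that stood apart they were 315 for Ing4+/- Ing5-/-, 4 for Ing4+/+ Ing5-/- and 4 for Ing4+/- Ing5+/+ against wild-type hearts. The fit without those 3 libraries dropped 1 heart of each mutant genotype and no wild-type heart. The cause of these shifts in the counts of called genes was not tested.

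Replicate numbers did not pair the hearts: residuals of hearts with the same number correlated above 0.1 in 6 of 24 pairs (median 0.0154). Hearts of the same litter did so in 3 of 11 pairs (median 0.0176). Hearts that shared neither did so in 16 of 67 pairs (median -0.0195). With replicate number as a block, 0 genes were called for Ing4+/+ Ing5-/- against wild-type hearts, the log2 value of Erbb2 in the interaction was 0.00111 against -0.0029 without the block, and no other call changed among the 8. Under the litter block, edgeR called 15 genes for Ing4+/- Ing5-/- against wild-type, 78 against Ing4+/- Ing5+/+ and 0 against Ing4+/+ Ing5-/- hearts, and 0 for Ing4+/+ Ing5-/- against wild-type hearts.

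Log2 fold changes that changed sign under the litter block were, for Ing4+/- Ing5-/- against wild-type hearts, Nrg1 (-0.0444), Erbb2 (0.0279), Bmp10 (0.0838) and Nppa (0.0329), and against Ing4+/- Ing5+/+ hearts Irx3 (0.019). For Ing4+/- Ing5-/- against Ing4+/+ Ing5-/- hearts they were Erbb4 (-0.089) and Bmp10 (-0.0126), for Ing4+/+ Ing5-/- against wild-type Erbb4 (0.069) and Bmp10 (0.0965), for Ing4+/- Ing5+/+ against wild-type Nrg1 (-0.0816) and Nppb (0.0811), and for the interaction Erbb2 (0.0273). With limma-voom they were Nrg1 in Ing4+/- Ing5-/- against Ing4+/- Ing5+/+ hearts (-0.00645) and Erbb2 in the interaction (0.00148). Without the 3 libraries that stood apart they were, for Ing4+/- Ing5-/-, Erbb2 against wild-type (0.0178), Erbb4 (-0.00592), Bmp10 (-0.00298) and Nppa (-0.0104) against Ing4+/- Ing5+/+, and Erbb4 against Ing4+/+ Ing5-/- hearts (-0.15). For Ing4+/+ Ing5-/- against wild-type it was Erbb2 (0.00957), and for Ing4+/- Ing5+/+ against wild-type Nppb (0.0278).

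Leaving out 1 library at a time gave 37 (without wild-type 3) to 321 (without Ing4+/+ Ing5-/- 1) called genes for Ing4+/- Ing5-/- against wild-type, 72 (without Ing4+/- Ing5-/- 2) to 461 (without Ing4+/+ Ing5-/- 1) against Ing4+/- Ing5+/+ and 1 to 3 against Ing4+/+ Ing5-/- hearts. It gave 0 to 15 for Ing4+/+ Ing5-/- and 0 to 1 for Ing4+/- Ing5+/+ against wild-type hearts, and 0 to 2 for the interaction. The log2 fold change then ranged, for Ing4+/- Ing5-/- against wild-type hearts, from -0.0325 to 0.225 for Nrg1, -0.0395 to 0.0224 for Erbb2 and -0.263 to 0.0791 for Bmp10. Against Ing4+/- Ing5+/+ hearts it ranged from -0.122 to 0.139 for Nrg1, -0.155 to 0.187 for Bmp10, -0.124 to 0.116 for Nppa, -0.344 to 0.0474 for Nppb and -0.229 to 0.0659 for Irx3. Against Ing4+/+ Ing5-/- hearts it ranged from -0.341 to 0.0526 for Nrg1, -0.0266 to 0.116 for Erbb2, -0.102 to 0.116 for Erbb4 and -0.204 to 0.049 for Irx3. For Ing4+/+ Ing5-/- against wild-type it was -0.129 to 0.0129 for Erbb2 and -0.0514 to 0.331 for Nppb, for Ing4+/- Ing5+/+ against wild-type -0.164 to 0.031 for Nppb, and for the interaction -0.0689 to 0.0728 for Erbb2.

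Of the 28 correlations, 1 passed in the main setting, 2 with genotypes centred, 2 with litters centred, 4 without the 2 farthest hearts and 4 without the 3 libraries. Depth limited Nrg1 most, at 111 reads in the lowest library.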
